A study of Homo sapiens with 6 samples.

Results

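The mRNAs of 9 enzymes and enzyme subunits of the mitochondrial tricarboxylic acid (TCA) cycle, namely CS, IDH2, IDH3A, IDH3B, IDH3G, OGDH, SUCLG1, FH and MDH2, were measured by RNA-seq in human leukemia cells with and without CRISPR targeting of COX4I1. The genes were picked by name as enzymes of the cycle, and all 9 of the 9 were found among the 19845 gene symbols counted and had enough counts to be tested. The cells were Molm13, an acute myeloid leukemia (AML) line labelled as MLL-rearranged (MLL-r), stably expressing the Cas9 nuclease, transduced by lentivirus with a single-guide RNA in the ipUSEPR vector and selected in puromycin. In 3 control libraries (sgCtrl #1, #2 and #3) the guides targeted non-essential sequences, and in 3 others (sgCOX4I1 #1, #2 and #3) they were given as targeting COX4I1, a nuclear-encoded subunit of Complex IV of the respiratory chain. Every culture thus carried Cas9, a guide and puromycin resistance, and each library within a group carried a different guide, so the spread between libraries includes differences between guides. Of the 3 sgCOX4I1 guide sequences that the methods print, 1 has no near match within COX4I1 in GRCh38, and which library carried it is not given in the sources used here. The cultures were selected populations, not described as clones, and can hold cells in which the target was not cut.

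The TCA cycle oxidizes the acetyl group of acetyl-CoA in the mitochondrial matrix and passes the electrons to the respiratory chain as NADH and reduced flavin. Its dehydrogenases need oxidized NAD, which the respiratory chain regenerates, so the cycle and the chain run together. The cycle also supplies precursors, such as citrate for lipid synthesis and oxaloacetate for aspartate, and in AML it is known for mutations of isocitrate dehydrogenase genes and for its use of glutamine carbon.

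None of the 9 mRNAs passed the test between the groups, and the 95% intervals of all 9 lay within -0.22 to 0.39 on the log2 scale. The estimates ran from -0.07 on the log2 scale for IDH2 to 0.20 for OGDH, with standard errors from 0.069 to 0.098 (n = 3 libraries per group). In the quasi-likelihood test of edgeR, with p-values adjusted by Benjamini-Hochberg over the 11861 genes tested, 0 of the 9 had an adjusted p under 0.05, against 2.08% of all genes tested, and the smallest adjusted p among them was 0.274. OGDH was the 1 member with an unadjusted p under 0.05 in edgeR, against 17.3% of all genes tested, and DESeq2 and limma-voom also called 0 of the 9 after adjustment. The median log2 fold change of the 9 was 0.079 with 8 above 0 and 1 below, beside a median of -0.0023 over all genes tested, of which 5865 were above 0 and 5996 below. Groups did not overlap for 2 members, CS and IDH3A, both higher in sgCOX4I1, against 21.6% of all genes tested in either direction. In RNA from whole cultures, a change in the share of cells with a given state and a change in RNA per cell cannot be told apart.

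Total counts per library ran from 17241014 to 30861943, and each of the 9 mRNAs had at least 989 counts in every library. COX4I1 itself was at 513, 502 and 463 CPM (counts scaled to the library totals after TMM correction) in the control libraries and at 132, 378 and 133 CPM in sgCOX4I1 #1, #2 and #3. The sgCOX4I1 #2 library thus kept 76.7% of the control mean of COX4I1 mRNA, which does not measure the protein. By immunoblot, the paper reports reduced COX4I1 protein in Molm13-Cas9 cells transduced with sgCOX4I1 guides. Between the groups COX4I1 mRNA differed by -1.21 on the log2 scale (standard error 0.29, adjusted p = 0.0512 in the edgeR test), or by -1.89 without sgCOX4I1 #2. All 7 AML cell markers examined (PTPRC, CD33, SPI1, FLT3, CEBPA, HOXA9 and MEIS1) were above 33 CPM in every library. Of markers of other cell types, HBB, EPCAM and CDH5 had 0 counts, CD3E and COL1A1 stayed under 1 CPM, KRT18 was at 6.86 to 13.8 CPM, and PECAM1, which myeloid cells also express, was at 168 to 220 CPM.

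**Figure D1:**
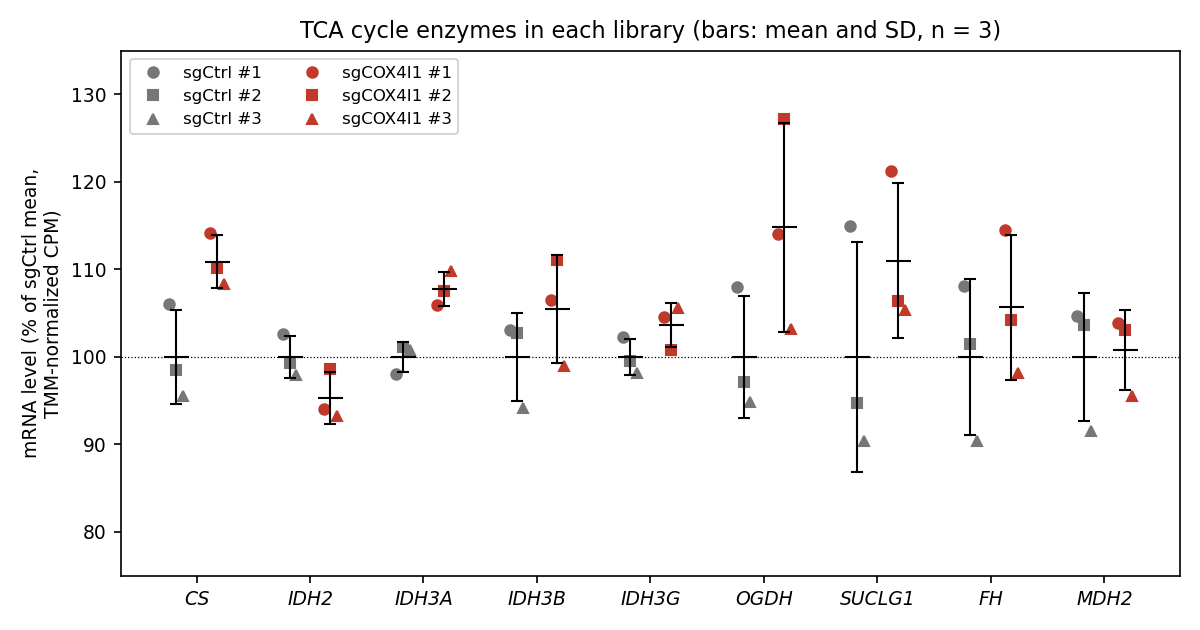
mRNA level of the 9 TCA cycle enzymes in each library (y axis, percent of the sgCtrl mean of that gene, from TMM-normalized CPM). Gray points are sgCtrl and red points sgCOX4I1 libraries, shapes mark the guide number, and bars show mean and SD of 3 libraries. The groups overlap for all but CS and IDH3A, and the widest spread is in OGDH and SUCLG1.

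Citrate synthase, encoded by CS on the minus strand of chromosome 12 (56271699 to 56300391 in GRCh38), joins acetyl-CoA to oxaloacetate and opens the cycle. Its mRNA was at 336, 312 and 303 CPM in sgCtrl #1, #2 and #3 and at 362, 349 and 343 CPM in sgCOX4I1 #1, #2 and #3. Every sgCOX4I1 value was above every sgCtrl value, although sgCOX4I1 #3 exceeded sgCtrl #1 by only a few CPM. The estimate for sgCOX4I1 was 10.9% higher (95% interval -0.56% to 23.7%), or 0.15 on the log2 scale (standard error 0.073), and its adjusted p in the edgeR test was 0.316. Leaving out 1 library at a time gave CS log2 fold changes between 0.12 and 0.19. A read-through transcript annotated on the same strand shares 7.55% of the bases of the CS transcript, so some reads there could have been split or left uncounted, and CS has 2 annotated pseudogenes.

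Isocitrate dehydrogenase exists in the matrix in an NADP-dependent form, IDH2, and an NAD-dependent form made of the catalytic subunit IDH3A with IDH3B and IDH3G. IDH2 lies on the minus strand of chromosome 15 (90083045 to 90102477) and IDH3A on the plus strand of chromosome 15 (78131498 to 78171945). IDH3B is on the minus strand of chromosome 20 (2658395 to 2664219) and IDH3G on the minus strand of chromosome X (153785766 to 153794512). The NADP-dependent enzyme makes NADPH, while the NAD-dependent one is the oxidative step usually assigned to the forward cycle.

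IDH2 mRNA was at 217, 210 and 207 CPM in the sgCtrl libraries and at 199, 209 and 197 CPM in sgCOX4I1 #1, #2 and #3. The groups overlapped only through sgCOX4I1 #2, which lay between sgCtrl #2 and #3. The log2 fold change of IDH2 was -0.07 (standard error 0.069, adjusted p = 0.657 in the edgeR test), a difference of -4.70% with a 95% interval from -14.0% to 5.60%. It was the only member with an estimate below 0 across all 6 libraries, and it stayed below 0, between -0.09 and -0.05, with each library left out.

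IDH3A mRNA was at 59.1, 61.0 and 60.8 CPM in the sgCtrl libraries and at 63.9, 64.9 and 66.2 CPM in sgCOX4I1 #1, #2 and #3. The 3 sgCOX4I1 libraries all lay above the 3 sgCtrl libraries, and relative to the mean the libraries within each group were closer together than for any other of the 9. The log2 fold change of IDH3A was 0.11 (standard error 0.072, adjusted p = 0.475 in the edgeR test), that is 7.77% higher with a 95% interval from -3.15% to 19.9%. On the opposite strand, ACSBG1 overlaps 63.9% of the bases of the IDH3A transcript. It had 8 to 40 counts per library, beside the 1085 to 2071 counts of IDH3A. If the counting did not use strand, reads in the shared bases could have been left uncounted for both genes. The count of ACSBG1 cannot show whether this happened.

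For both partner subunits the groups overlapped. IDH3B mRNA was at 110, 109 and 100 CPM in the sgCtrl libraries and at 113, 118 and 105 CPM in sgCOX4I1 #1, #2 and #3, with sgCOX4I1 #3 inside the range of sgCtrl. IDH3G mRNA was at 80.5, 78.3 and 77.2 CPM in the sgCtrl libraries and at 82.3, 79.3 and 83.0 CPM in sgCOX4I1, where sgCOX4I1 #2 lay inside the range of sgCtrl. Their log2 fold changes were 0.08 (standard error 0.076) and 0.05 (standard error 0.071), with adjusted p of 0.658 and 0.757 in the edgeR test. For IDH3B the log2 fold change was 0.036 without sgCtrl #3, 0.039 without sgCOX4I1 #2 and 0.12 without sgCOX4I1 #3. For IDH3G, 9.74% of the transcript is overlapped on the opposite strand by SSR4, which had 3179 to 5048 counts per library. Whether the counting used strand is not given in the sources used here.

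OGDH, on the plus strand of chromosome 7 (44606572 to 44709066), encodes the catalytic component of the 2-oxoglutarate dehydrogenase complex, which makes succinyl-CoA and NADH. Its mRNA was at 82.3, 74.1 and 72.3 CPM in the sgCtrl libraries and at 87.0, 97.0 and 78.7 CPM in sgCOX4I1 #1, #2 and #3. The highest value was in sgCOX4I1 #2, and sgCOX4I1 #3 lay below sgCtrl #1. The log2 fold change of OGDH was 0.20 (standard error 0.089), or 14.6% higher with a 95% interval from 0.38% to 30.9%, and the unadjusted p of 0.0447 became an adjusted p of 0.274 in the edgeR test. Without sgCOX4I1 #2 the log2 fold change was 0.12 (adjusted p = 0.60 in the edgeR test), so this library moved the estimate by more than 1.5 times.

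SUCLG1, on the minus strand of chromosome 2 (84423528 to 84460045), encodes the alpha subunit of succinyl-CoA ligase, shared by the GTP-forming and ATP-forming enzymes. Its mRNA was at 65.2, 53.7 and 51.2 CPM in the sgCtrl libraries and at 68.7, 60.3 and 59.7 CPM in sgCOX4I1 #1, #2 and #3. In both groups library #1 was the highest, and sgCtrl #1 lay above sgCOX4I1 #2 and #3. The log2 fold change of SUCLG1 was 0.15 with the largest standard error of the 9, 0.098, and a 95% interval from -0.06 to 0.36 (adjusted p = 0.464 in the edgeR test). Leaving out 1 library at a time gave log2 fold changes from 0.084 to 0.26, with 0.26 without sgCtrl #1, 0.084 without sgCtrl #3 and 0.085 without sgCOX4I1 #1.

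Fumarase, encoded by FH on the minus strand of chromosome 1 (241497511 to 241519799), hydrates fumarate to malate, and malate dehydrogenase 2, encoded by MDH2 on the plus strand of chromosome 7 (76048051 to 76067508), closes the cycle by making oxaloacetate and NADH. FH mRNA was at 150, 141 and 125 CPM in the sgCtrl libraries and at 159, 145 and 136 CPM in sgCOX4I1 #1, #2 and #3. MDH2 mRNA was at 332, 329 and 291 CPM in the sgCtrl libraries and at 330, 327 and 303 CPM in sgCOX4I1 #1, #2 and #3. For both genes library #3 was the lowest of each group, and the spread within a group was wider than the difference between the groups. The log2 fold change was 0.08 for FH (standard error 0.086, adjusted p = 0.690 in the edgeR test) and 0.01 for MDH2 (standard error 0.078, adjusted p = 0.961 in the same test). Without sgCtrl #3 or sgCOX4I1 #1 the log2 fold change of FH was 0.013 or 0.019, and without sgCtrl #1 or sgCOX4I1 #3 it was 0.14 or 0.13, so single libraries moved it by more than 1.5 times. For MDH2 the 95% interval ran from -10.3% to 13.3%, and its sign changed when sgCtrl #3, sgCOX4I1 #1 or sgCOX4I1 #2 was left out. FH has 1 annotated pseudogene.

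**Figure D2:**
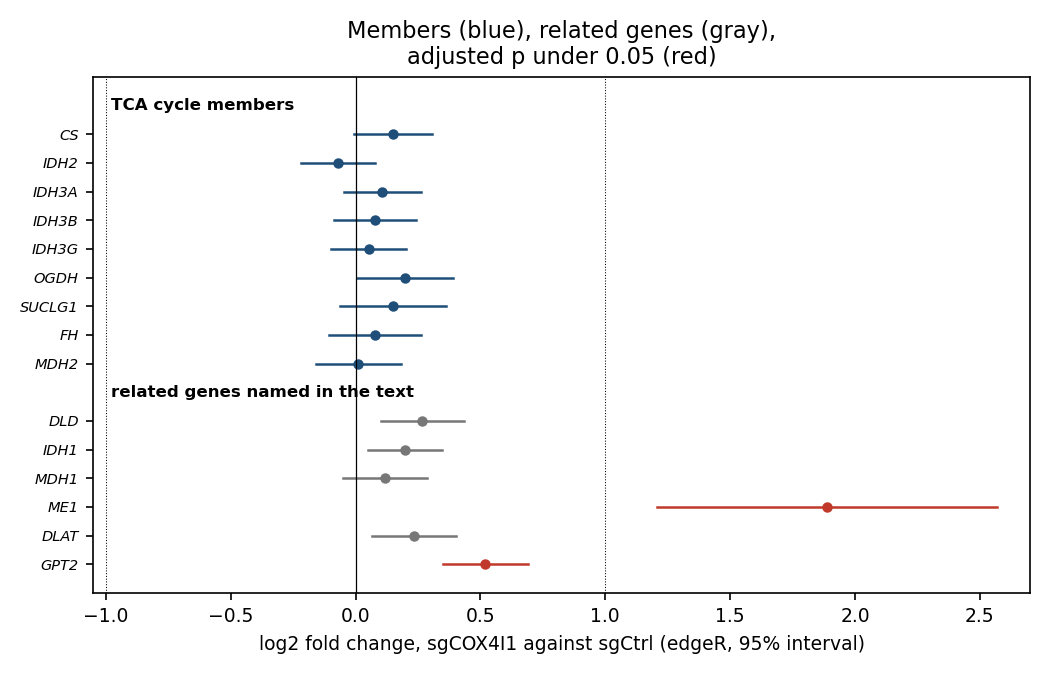
log2 fold change of each TCA cycle enzyme and of 6 related genes named in the text (x axis, sgCOX4I1 against sgCtrl, edgeR), with its 95% interval as a line. Blue marks the 9 enzymes, gray the related genes and red those with an adjusted p under 0.05, ME1 and GPT2, and dotted lines mark a 2-fold change. The intervals of the 9 enzymes all lie inside -0.22 to 0.39 on the log2 scale.

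The libraries of 1 group also differed in the level of most of the 9 mRNAs. Among the sgCtrl libraries, #1 was the highest for 8 of the 9 members and #3 the lowest for 8 of the 9. In the sgCOX4I1 libraries #3 was the lowest for 7 of the 9, while the highest was #1 for 4, #2 for 3 and #3 for 2. IDH3A went the other way, with library #1 the lowest of each group and sgCOX4I1 #3 the highest of all. Summed over the 9 genes, the level was 1432, 1368 and 1288 CPM in the 3 sgCtrl libraries, in order of guide number, and 1465, 1449 and 1373 CPM in the 3 sgCOX4I1 libraries, that is 1363 ± 72.4 against 1429 ± 49.1 (SD, n = 3 each). The groups overlapped in this sum. The share of counts on mitochondrially encoded mRNAs went the other way within each group, at 2.93%, 3.97% and 4.84% in sgCtrl #1, #2 and #3 and at 3.26%, 3.65% and 4.99% in sgCOX4I1 #1, #2 and #3. Its group means were 3.91% ± 0.96 and 3.96% ± 0.91 (SD, n = 3 each), and its part in the levels of the 9 enzymes was not tested.

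**Figure D3:**
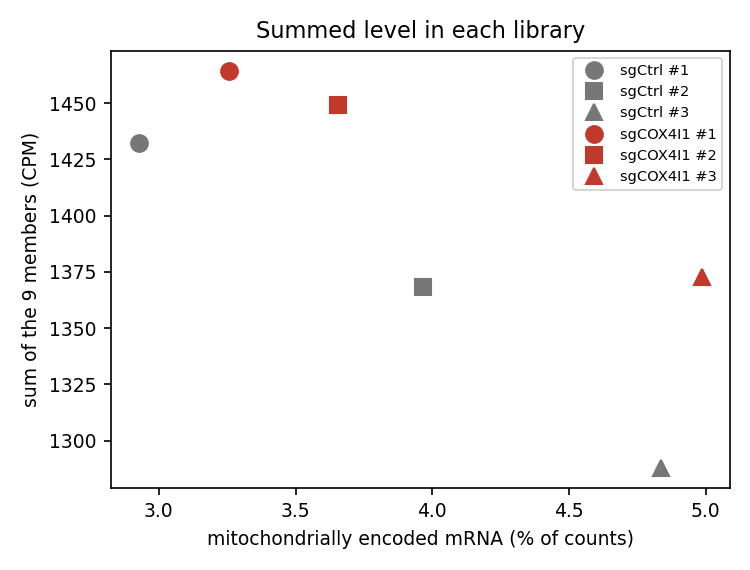
Summed level of the 9 TCA cycle enzymes (y axis, CPM, not starting at 0) against the share of counts on mitochondrially encoded mRNAs (x axis, percent), 1 point per library, gray for sgCtrl and red for sgCOX4I1. Within each group the library with the higher mitochondrial share has the lower sum, down to 1288 CPM in sgCtrl #3.

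To compare the enzymes with each other, CPM was divided by the length in kilobases of the MANE Select transcript, the reference transcript chosen for each gene. In sgCtrl, MDH2 was the highest at 146 ± 10.7 CPM per kilobase and CS followed at 109 ± 5.87 (SD, n = 3 libraries for each gene). IDH2 at 79.6 ± 1.92, FH at 77.4 ± 6.92 and IDH3B at 69.0 ± 3.50 CPM per kilobase came next. IDH2 and FH overlapped between libraries, as did FH and IDH3B, so their order was not separated from the spread. IDH3G was at 58.9 ± 1.24, SUCLG1 at 44.7 ± 5.86, OGDH at 18.2 ± 1.27 and IDH3A at 14.8 ± 0.256 CPM per kilobase. The catalytic subunit IDH3A was thus listed far below its partners IDH3B and IDH3G per length. However, 63.9% of the IDH3A transcript is overlapped on the opposite strand by ACSBG1, against 9.74% of the IDH3G transcript by SSR4. Reads left uncounted there would lower the listed level, and this was not tested. The order depends on the length used, and which transcripts these cells express was not measured. Per kilobase of all annotated exons together, IDH2 at 75.9 CPM was above CS at 49.5 and FH was at 14.8, with MDH2 again the highest at 87.2 and IDH3A the lowest at 8.84.

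**Figure D4:**
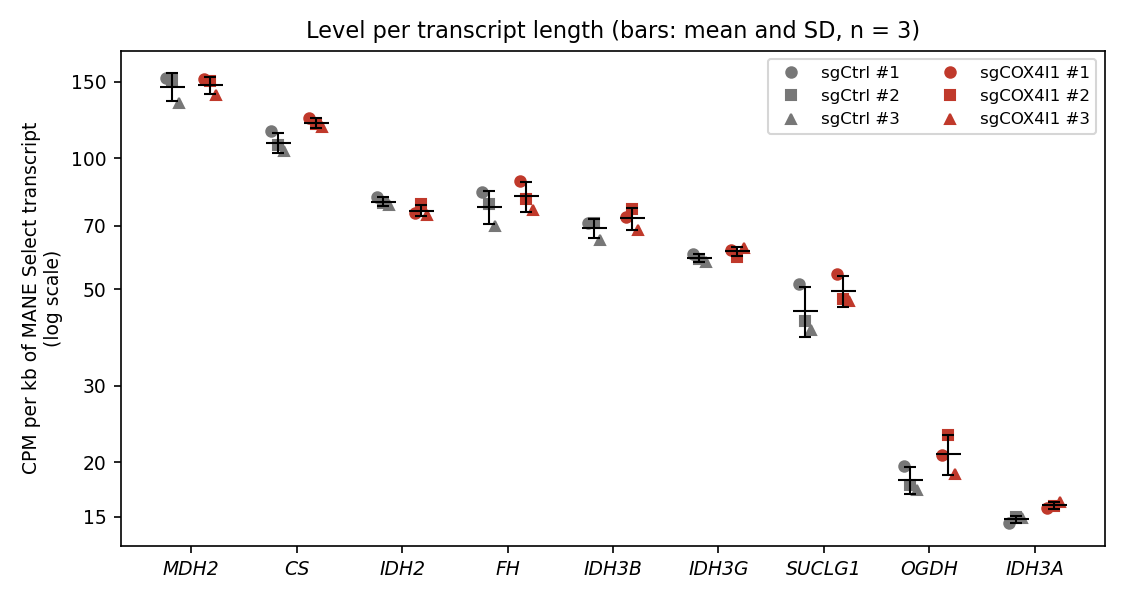
Level per transcript length of the 9 TCA cycle enzymes (y axis, CPM per kilobase of the MANE Select transcript, log scale) in sgCtrl (gray) and sgCOX4I1 (red) libraries, with bars for mean and SD of 3 libraries. MDH2 and CS are the highest and OGDH and IDH3A the lowest in both groups.

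Ratios within a library do not depend on how the library was scaled, and 4 of them, taken with 0.5 added to each CPM, were compared between the groups. The ratio of IDH3A to IDH3B CPM was 0.541, 0.560 and 0.609 in sgCtrl and 0.566, 0.551 and 0.631 in sgCOX4I1 #1, #2 and #3, a mean difference of 0.03 on the log2 scale (two-sided exact permutation test, p = 0.6). The ratio of IDH3G to IDH3B differed by -0.03 on the log2 scale (two-sided exact permutation test, p = 0.9). Both signs changed when single libraries were left out, so neither mRNA ratio differed by more than the spread between libraries. The ratio of IDH3A to IDH3G was not tested, and mRNA ratios do not measure the subunits in the enzyme. Reads of IDH3A left uncounted in the bases shared with ACSBG1 would also change its ratio.

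The matrix enzymes were also set against their cytosolic counterparts. IDH1, the cytosolic NADP-dependent isocitrate dehydrogenase, was measured in the same libraries at 134, 130 and 137 CPM in the sgCtrl libraries and at 157, 150 and 153 CPM in sgCOX4I1 (log2 fold change 0.20, standard error 0.069, adjusted p = 0.154 in the edgeR test). The ratio of IDH2 to IDH1 CPM was 1.61, 1.62 and 1.51 in sgCtrl and 1.26, 1.39 and 1.29 in sgCOX4I1 #1, #2 and #3. Every sgCOX4I1 ratio was below every sgCtrl ratio, and the mean log2 ratio was 0.66 ± 0.06 in sgCtrl and 0.39 ± 0.07 in sgCOX4I1 (SD, n = 3 each). The difference of -0.27 had p = 0.1 in the two-sided exact permutation test, the smallest p that 3 libraries against 3 allow, and 0.4 after Benjamini-Hochberg adjustment over the 4 ratios. With each library left out the difference stayed between -0.31 and -0.24. The ratio of MDH2 to MDH1, the cytosolic malate dehydrogenase, was 1.34, 1.42 and 1.34 in sgCtrl and 1.23, 1.35 and 1.23 in sgCOX4I1 #1, #2 and #3. Here sgCOX4I1 #2 lay inside the range of sgCtrl, and the log2 difference was -0.10 (two-sided exact permutation test, p = 0.3, adjusted p = 0.6).

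**Figure D5:**
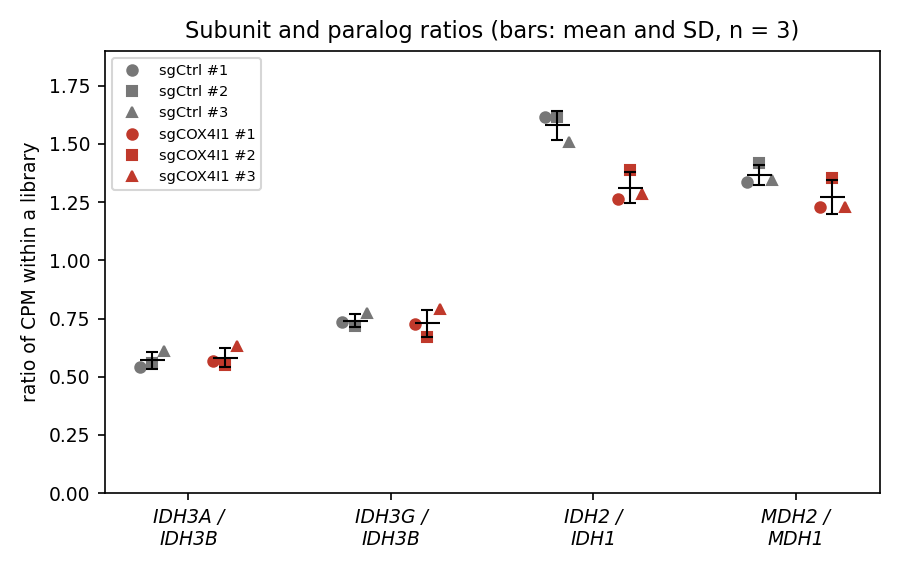
Ratio of the CPM of 2 genes within a library (y axis, starting at 0) for the NAD-dependent isocitrate dehydrogenase subunits and for the matrix against the cytosolic form of isocitrate and malate dehydrogenase, gray for sgCtrl and red for sgCOX4I1, with bars for mean and SD of 3 libraries. Of the 4 ratios, IDH2 to IDH1 is the one whose groups do not overlap.

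Genes around the 9 enzymes were read from 5 lists with 50 genes, of which 46 were tested. The lists were chosen with earlier results of these data known, so the shares set beside them are descriptions and not tests. The 10 other enzymes and subunits of the cycle (among them DLST, DLD, SUCLA2 and the SDHA to SDHD subunits of succinate dehydrogenase) all had estimates above 0, their median was 0.16 on the log2 scale, and 7 of them had groups that did not overlap, against 21.6% of all genes tested. In the edgeR test 0 of the 10 passed after adjustment, against 2.08% of all genes tested. An unadjusted p under 0.05 was found for 3, against 17.3% of all genes tested. DLD, the lipoamide dehydrogenase shared by the 2-oxoglutarate and pyruvate dehydrogenase complexes, had the smallest p of them. DLD mRNA was at 104, 92.1 and 90.2 CPM in the sgCtrl libraries and at 118, 115 and 111 CPM in sgCOX4I1 #1, #2 and #3, so that the groups did not overlap (log2 fold change 0.27, standard error 0.077, adjusted p = 0.0911 in the edgeR test). Without sgCtrl #1 its adjusted p in the edgeR test was 0.0263, but 4.66% of all genes tested then passed. With any other single library left out it ran from 0.171 to 0.348.

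Among the cytosolic counterparts and carriers, a list that also held the mitochondrial malic enzymes ME2 and ME3, 10 of 11 genes were tested. Of these, 7 were above 0 with a median of 0.15 on the log2 scale. An unadjusted p under 0.05 was found for 4, against 17.3% of all genes tested. Groups did not overlap for 5 higher and 1 lower in sgCOX4I1, against 21.6% of all genes tested. In the edgeR test 1 passed after adjustment, against 2.08% of all genes tested. That gene was ME1, the cytosolic malic enzyme, which makes pyruvate and NADPH from malate. ME1 mRNA was at 2.18, 1.63 and 0.737 CPM in sgCtrl #1, #2 and #3, from 15 to 40 counts, and at 6.73, 5.87 and 4.22 CPM in sgCOX4I1 #1, #2 and #3, from 101 to 151 counts. The groups were well apart, although the level was low in both. ME1 rose 3.70-fold (95% interval 2.31 to 5.93), or by 1.89 on the log2 scale (standard error 0.32), with an adjusted p of 0.00938 in the edgeR test. It no longer passed without sgCtrl #2 (adjusted p = 0.105) or without sgCOX4I1 #2 (adjusted p = 0.0624), where the log2 fold change was 1.95 and 1.85.

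Genes of glutamate entry and exit had the highest median of the 5 lists, 0.24 on the log2 scale over the 7 of 9 tested. Of the 7, 6 were above 0 and 1 passed the edgeR test, against 2.08% of all genes tested. An unadjusted p under 0.05 was found for 6, against 17.3% of all genes tested. The groups did not overlap for any of the 7 (6 higher and 1 lower in sgCOX4I1), against 21.6% of all genes tested. The list was chosen with earlier results of these data known, so these counts only describe it. The gene that passed was GPT2, the mitochondrial alanine transaminase, which passes the amino group of glutamate to pyruvate and yields 2-oxoglutarate. GPT2 mRNA was at 58.7, 55.3 and 51.2 CPM in the sgCtrl libraries and at 82.3, 75.2 and 79.2 CPM in sgCOX4I1 #1, #2 and #3. The groups were apart by more than the spread within either, and GPT2 rose by 43.4% (95% interval 27.3% to 61.4%, log2 fold change 0.52, standard error 0.080, adjusted p = 0.00501 in the edgeR test). Without sgCtrl #2 its adjusted p was 0.0731. Of the 46 related genes tested, edgeR called 2, ME1 and GPT2, both higher in sgCOX4I1, against 2.08% of all genes tested. DESeq2 called 3, ME1, GPT2 and ME2, against 3.93% of all genes tested. ME2, a mitochondrial malic enzyme, is reported here after its values were seen. ME2 mRNA was at 84.4, 74.3 and 75.8 CPM in the sgCtrl libraries and at 98.0, 98.9 and 94.0 CPM in sgCOX4I1 #1, #2 and #3, without overlap (log2 fold change 0.31, standard error 0.076, adjusted p = 0.0518 in the edgeR test).

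Of the genes of pyruvate entry 12 of 13 were tested, and their median was 0.0033 on the log2 scale, with 8 above 0 and 4 below. In the edgeR test 0 passed, against 2.08% of all genes tested. An unadjusted p under 0.05 was found for 1, against 17.3% of all genes tested. The smallest p was that of DLAT, the acetyltransferase of the pyruvate dehydrogenase complex, at 0.23 on the log2 scale (standard error 0.079, adjusted p = 0.145 in the edgeR test). Without sgCtrl #1 the adjusted p of DLAT in the edgeR test was 0.0488, but 4.66% of all genes tested then passed. With any other single library left out it ran from 0.242 to 0.404. The 7 genes of lipoate attachment and related cofactors had a median of 0.05 with 6 above 0. In the edgeR test 0 passed and 0 had an unadjusted p under 0.05, against 2.08% and 17.3% of all genes tested.

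Promoter sequence was read for the members from RefSeq on GRCh38.p14, in windows of 300 bases, from 250 before to 50 after each gene's start, and 8 of the 9 members were matched there (all but OGDH). For IDH3A, IDH2 and SUCLG1 the whole window lies inside the wider span that GENCODE gives the gene. It does not reach the outermost annotated start there. The motifs and the stretches shown were chosen after the levels had been seen. The stretches below, each 5′ to 3′ on the gene's own strand, show CS, IDH3A, IDH3B, MDH2 and the related gene ME1, which rose. Groups did not overlap for 2 of the 9 members, CS and IDH3A, against 21.6% of all genes tested. They overlapped for IDH3B and MDH2. FH is not shown, although its groups overlapped and its window has both SP1 and CCAAT matches, so the stretches do not sort the members by motif. Capitals mark matches to an SP1 box (GGGCGG) and a CCAAT box (CCAAT) for CS, an SP1 box for IDH3A, an ETS motif (CCGGAAG) for IDH3B and MDH2, and an antioxidant response element (TGACNNNGC) for ME1, on either strand.
CS, chr12:56300401-56300480, minus strand: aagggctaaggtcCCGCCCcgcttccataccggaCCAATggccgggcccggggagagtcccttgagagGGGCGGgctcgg
IDH3A, chr15:78149232-78149307, plus strand: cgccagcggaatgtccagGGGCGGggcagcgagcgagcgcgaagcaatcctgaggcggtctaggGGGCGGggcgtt
IDH3B, chr20:2664237-2664296, minus strand: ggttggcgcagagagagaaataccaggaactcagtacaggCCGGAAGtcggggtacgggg
MDH2, chr7:76048006-76048045, plus strand: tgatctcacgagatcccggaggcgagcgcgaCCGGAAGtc
ME1, chr6:83431152-83431211, minus strand: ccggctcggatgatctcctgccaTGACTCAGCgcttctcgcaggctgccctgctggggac

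The SP1 box was found in 3 of the 8 members' windows (CS, IDH3A and FH), against 44.6% of the 27305 RefSeq promoter windows. The CCAAT box was found in 4 (CS, IDH3G, SUCLG1 and FH), against 35.7%, and the ETS motif in 3 (IDH3B, IDH3G and MDH2), against 10.7%. The antioxidant response element was found in IDH3G and SUCLG1, against 13.6% of all windows, and the NRF1 motif in IDH3G, against 1.59%. The cAMP response element (TGACGTCA), the TATA box (TATAAA), the E-box (CACGTG), the amino acid response element (TGATGNAA) and the ERRA element (TCAAGGTCA) were found in 0 of the 8, against 1.98%, 12%, 7.43%, 3.67% and 0.359% of all windows. Each motif was searched on both strands, the matches describe letters in these windows only, and the members with and without a match did not form groups that were tested.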

How the data were processed

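RNA-seq of 6 Molm13-Cas9 libraries was analysed. The authors deposited whole-number read counts per gene symbol, not normalized. The methods name Trimmomatic, Bowtie2 and RSEM, whereas the submitters' processing notes and column names give bcl2fastq 2.20.0.422, STAR 2.6.0a, marked duplicates and HTSeq on GRCh38, and the sources were not reconciled. Columns were matched by letter (C, sgCtrl; K, sgCOX4I1) and guide number, and 0 columns were left over.

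The members and gene lists were chosen with earlier results of these data known. Named genes were all 9 members, COX4I1, and in each related list the genes with an adjusted p under 0.05 (up to 5) or else the one with the smallest p. Some genes of these lists are not reported here. IDH1 and MDH1 entered through the 4 ratios. Counts were tested with edgeR 4.0.16 in R 4.3.3 (TMM, filterByExpr, quasi-likelihood test, Benjamini-Hochberg over 11861 genes, called at an adjusted p of 0.05). Ratios used log2 CPM with 0.5 added and exact permutation tests. Positions and lengths came from GENCODE 44, where all 9 members were matched by symbol among 18437 of 19845 symbols. Alternatives were DESeq2 1.42.0, limma-voom (limma 3.58.1), library size without TMM, no filter, at least 10 counts per library, a replicate block, thinned counts and each library left out. The tests were run on simulated data first. Libraries of a group differed by more than counting noise (chi-square divided by its degrees of freedom, 11.0 to 27.6), so none was a copy of another. Total counts of 17241014 to 30861943 set the precision. The labels do not say that the libraries of a group came from separately grown cultures beyond their guides, so p-values measure the spread between these libraries.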

Additional observations from a re-analysis of the deposited data

How the results depend on the processing

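None of the 9 TCA cycle enzymes was called under any of the 13 alternatives run, and their median log2 fold change stayed between 0.04 and 0.12 with each library left out. The sign of MDH2 reversed without sgCtrl #3 (log2 fold change -0.0464), sgCOX4I1 #1 (-0.0082) or sgCOX4I1 #2 (-0.0036), and was at most 0.0494 with 1 library left out. The log2 difference of IDH3A to IDH3B reversed without sgCtrl #1 (-0.0069) or sgCOX4I1 #3 (-0.0286), with a highest value of 0.0789 over all libraries left out, and that of IDH3G to IDH3B without sgCtrl #3 (0.0041) or sgCOX4I1 #2 (0.0324), with a lowest value of -0.0842.

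The count of all genes called was 247 in edgeR, 466 with DESeq2, 537 without the filter on low counts and 24 to 561 with 1 library left out, the lowest without sgCtrl #2 and the highest without sgCtrl #1 (51 without sgCOX4I1 #2 and 89 without sgCOX4I1 #3). With a 2-fold change it was 24, 41 without the filter and 9 to 50 with 1 library left out. The related genes called went from 2 to 4 without the filter and from 0 to 7 with 1 library left out, where 0 was without sgCtrl #2 and 7 without sgCtrl #1. COX4I1 was at -1.20 without the filter (adjusted p = 0.000205 in edgeR), at -1.40 with limma-voom (adjusted p = 0.0291) and from -1.89 to -0.95 with 1 library left out, and its adjusted p was 0.234 with DESeq2, 0.272 in edgeR without sgCtrl #2 and 3.37e-06 without sgCOX4I1 #2. ME2 was also called by DESeq2, without TMM, without the filter and with at least 10 counts per library. The cause of these shifts was not tested.

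The guide numbers are shared by the groups, and whether they mark pairs is not given in the sources used here. The deviations of same-numbered libraries correlated at 0.54, -0.02 and 0.42 for #1, #2 and #3. Across numbers, sgCtrl #3 with sgCOX4I1 #1 gave -0.53 and sgCtrl #1 with sgCOX4I1 #3 gave -0.46. The sgCtrl #2 library correlated best with sgCOX4I1 #3 (0.10). A factor shared by same-numbered libraries was not tested, and the main tests took the libraries as unpaired. With the replicate block edgeR called 1408 genes (11.9% of those tested), 57 with a 2-fold change, 12 related genes and 0 of the 9 enzymes. COX4I1 was then at -1.39 (adjusted p = 0.000176), while DLD and DLAT had adjusted p of 0.00657 and 0.0141. Of the 9 enzymes, OGDH and CS came closest with the block, at adjusted p of 0.0669 and 0.0768 in edgeR.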
